A study of Mus musculus with 2 samples.

Results

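The calcium, magnesium and phosphate genes of the distal nephron were read on 2 single-colour arrays. The first array held kidney RNA of a control animal, 1 Mxi1 +/+ mouse, and the other that of the experiment, 1 Mxi1 -/- mouse. The set has 6 genes, chosen by name for their place in the distal convoluted and connecting tubule: Calb1, S100g, Pvalb, Slc8a1, Trpm6 and Kl. All 6 had 1 named probe, out of 9985 genes with a named probe above 0 on both arrays. Both mice are labelled 1Y, and the source of the RNA is given as kidney. The targeted allele, sex and strain are not stated in these sources, and RNA of 1 animal stands for each genotype. MXI1, the product of Mxi1, pairs with MAX on E-box DNA and acts there against MYC.

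The distal convoluted tubule and the connecting tubule make the last fine adjustment of urinary calcium and magnesium. Calcium enters the cell through the channel TRPV5, is bound and carried by the calbindins, and leaves on the blood side through the sodium-calcium exchanger NCX1 and a calcium pump. Magnesium enters through the channel TRPM6. Klotho, encoded by Kl, is the co-receptor through which the bone hormone FGF23 signals to the kidney, where it lowers phosphate uptake and active vitamin D.

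Intensities are linear values in arbitrary units, with a median of 1.02 on both arrays over the 19663 probes above 0 in both. All differences are log2 of Mxi1 -/- minus log2 of Mxi1 +/+ after each array was centred on that median, so a positive value is higher in Mxi1 -/-. Each genotype is a single animal, so no p-value can be given, and sizes are read against the other genes of the same arrays. The only error estimate is technical and holds no variation between animals. It is the standard deviation of the log2 difference among probes of the same gene, 0.17 (42 genes with several probes at or above the median level). A noise floor of 3 times the root mean square of the values below 0 came to 0.102 on the Mxi1 +/+ array and 0.156 on the Mxi1 -/- array. Mxi1 itself read 4.31 in Mxi1 +/+ and 1.69 in Mxi1 -/- (log2 difference -1.35). The place of its probe relative to the deletion is not given, so this reading checks the labels in direction only.

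All 6 genes lay above both noise floors, and none differed by 1.5-fold or more between the kidneys. That line was passed by 22.6% of all measured genes and by 7.67% of the 5737 genes whose mean level was no lower than the probe median, a group that holds 5 of the 6 (Slc8a1 lies below). Calb1, Slc8a1 and Pvalb read higher in Mxi1 -/- and Trpm6, S100g and Kl read lower. The median of the 6 log2 differences was 0.02, and they ran from -0.43 to 0.31. The median over all measured genes was -0.05. In whole-kidney RNA, a difference in the number of distal tubule cells and a difference in RNA per cell cannot be told apart.

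**Figure D1:**
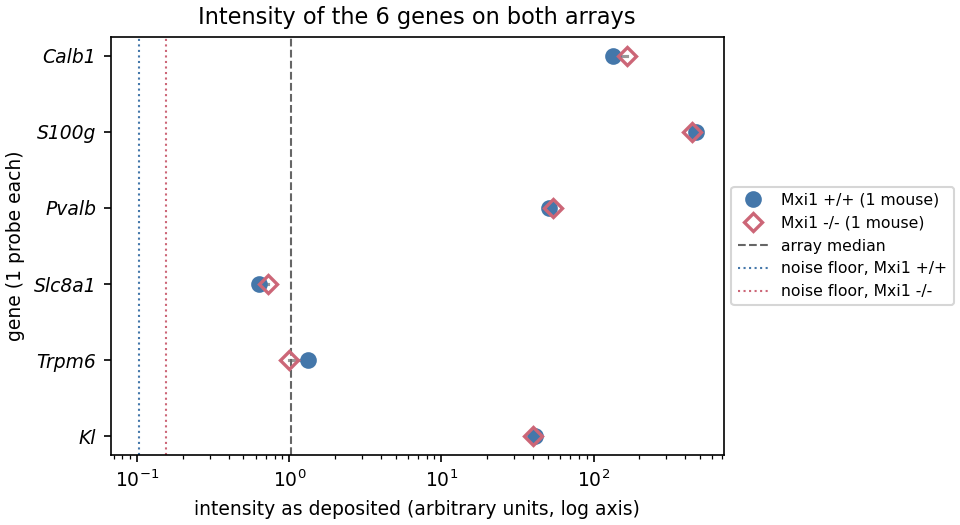
Deposited intensity (log axis) of the 6 genes in the Mxi1 +/+ kidney (filled circles) and the Mxi1 -/- kidney (open diamonds), 1 probe and 1 mouse each. The dashed line is the array median of 1.02 and the dotted lines are the noise floors of 0.102 and 0.156. The 2 readings of each gene lie close together, and the widest gap is that of Trpm6, at 1.33 and 0.989. Levels of different probes are not comparable with each other.

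Calbindin-D28K, encoded by Calb1, is the cytosolic calcium carrier of the late distal convoluted and connecting tubule. Probe 1646 gave 134 for Mxi1 +/+ and 166 for Mxi1 -/-. The Mxi1 -/- kidney was the higher one by 1.24-fold (log2 difference 0.31), the largest difference upward among the 6. To place this size, the 9985 genes were split by mean level into 4 classes of near equal size, from the dimmest (class 1) to the brightest (class 4). In class 4, which holds Calb1, S100g, Pvalb and Kl, 5.09% of 2496 genes passed 1.5-fold. There 21.0% of genes differed by at least as much as Calb1 in either direction, and the 25th and 75th percentiles of the differences were -0.22 and 0.07. Calb1 lay above that range, and so did Pvalb, at 0.09.

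The other calcium binders of these cells lay nearer to 0. Calbindin-D9k, encoded by S100g, is the smaller calcium carrier of the same segments and depends on vitamin D in the intestine. Probe 6503 gave 470.4 for Mxi1 +/+ and 442 for Mxi1 -/-, a log2 difference of -0.09. It was the lower reading in Mxi1 -/- by 1.06-fold, and under quantile normalization the difference was 0.0024, on the other side of 0. Parvalbumin, encoded by Pvalb, buffers calcium in the early distal convoluted tubule and in fast muscle. Probe 12218 gave 50.8 for Mxi1 +/+ and 54.1 for Mxi1 -/-, higher in Mxi1 -/- by 1.06-fold (log2 difference 0.09). Of the genes in class 4, 67.5% differed by at least as much as S100g and 67.0% by at least as much as Pvalb.

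The readings of the 3 calcium binders did not all go one way. The log2 difference of Calb1 exceeded that of S100g by 0.40 and that of Pvalb by 0.22. For a difference between 2 probes the technical standard deviation is 0.24, so the gap between the calbindins is 1.69 times it and that between Calb1 and Pvalb 0.93 times it.

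Slc8a1 encodes NCX1, which moves calcium out of the cell on the blood side in exchange for sodium, and which is also the main exchanger of heart muscle. Probe 3267 gave 0.630 for Mxi1 +/+ and 0.727 for Mxi1 -/-, higher in Mxi1 -/- by 1.15-fold (log2 difference 0.21). Both readings lay under the array median, at 6.16 and 4.66 times the noise floors. In its level class, class 2, 61.1% of 2496 genes differed by at least as much, and 18.8% passed 1.5-fold. The reading was higher by less than most genes of like brightness moved in either direction.

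Trpm6 encodes the magnesium channel of the apical membrane of the distal convoluted tubule, which carries a kinase domain in the same protein. Probe 9663 gave 1.33 for Mxi1 +/+ and 0.989 for Mxi1 -/-. It was the lower reading in Mxi1 -/- by 1.34-fold (log2 difference -0.43), the largest difference among the 6 and, as reported here, the only one past a lower line set at 0.32 on the log2 scale. Calb1 also passed that line under quantile normalization (0.36), lowess (0.34) and centring on the brighter probes (0.36). That lower line was passed by 41.8% of all measured genes and, downward, by 23.2%. In its level class, also class 2, the 25th and 75th percentiles of the differences were -0.30 and 0.27, and 32.3% of genes differed by at least as much as Trpm6. With the array median added to each value as a pseudocount, the log2 difference shrank to -0.23.

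Trpm6 and Pvalb are both known from the early distal convoluted tubule, and their readings went apart: the log2 difference of Trpm6 minus that of Pvalb was -0.52, in size 2.19 times the technical standard deviation between 2 probes. The widest gap among the 15 pairs of the 6 genes was between Calb1 and Trpm6, at 0.74 (3.12 times). The 2 genes were picked out here as the extremes of the set, so this gap is given as a description. The technical standard deviation was taken over all genes with several probes at or above the median level, and Trpm6 lies near that level. Between the 25th and 75th percentiles, differences ran from -0.30 to 0.27 in its class 2, and from -0.22 to 0.07 in class 4.

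Kl read 41.0 in Mxi1 +/+ and 39.7 in Mxi1 -/- (probe number 16970). The log2 difference of -0.05 was the smallest in size of the 6, and 83.0% of the genes in class 4 differed by at least as much. Its sign was not settled: the difference was 0.05 under quantile normalization, 0.0074 after lowess and 0.0065 when the arrays were centred on the brighter probes only.

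**Figure D2:**
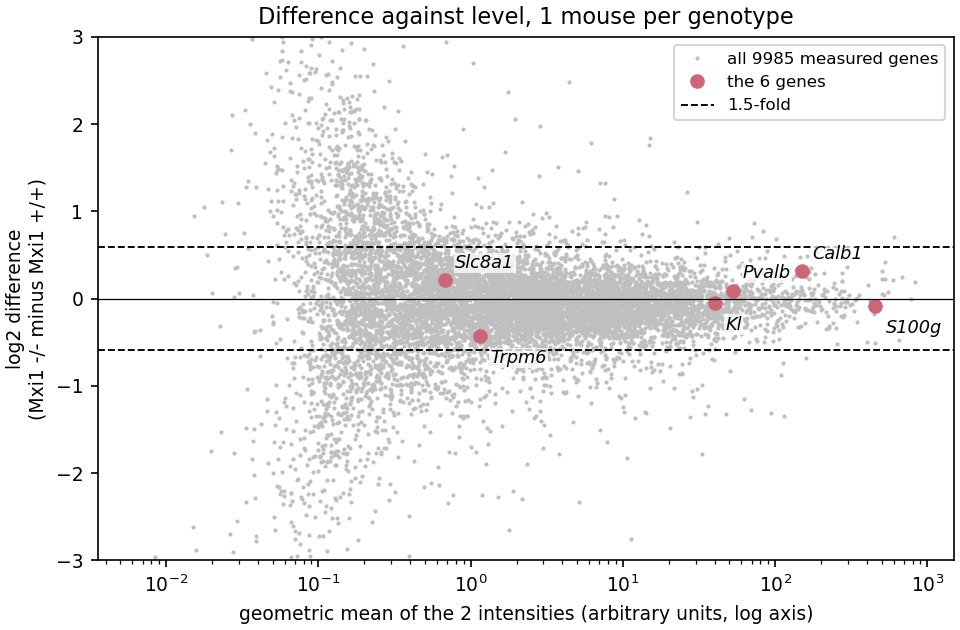
Log2 difference (Mxi1 -/- minus Mxi1 +/+) against the geometric mean of both intensities (log axis) for all 9985 measured genes (grey) and the 6 genes (red), with dashed lines at 1.5-fold. Of all genes, 137 lie beyond the axis limit of 3 in size. The 6 genes lie between the dashed lines, Calb1 highest at 0.31 and Trpm6 lowest at -0.43, and the grey spread widens toward low levels, where Slc8a1 and Trpm6 lie.

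The promoter windows of the set were searched for E-box DNA, since MXI1 with MAX is known to bind the sequence CACGTG. RefSeq windows (GRCm38.p6) from 250 bases before to 50 bases after an annotated start were at hand for 5 of the 6 genes (6 windows, 2 of them for Pvalb). None of the 6 windows held CACGTG, which occurs in 7.15% of 32851 mouse windows of this length. The related sequence CACGCG, searched on both strands, occurs in 9.27% of them and in 1 of the 6, that of Trpm6, the gene with the largest difference. It begins 31 bases before the annotated start, a position written as -31. The TATA sequence TATAAA, on either strand, occurs in 13.6% of all windows and in 1 of the 6, that of S100g. There it begins at base 1, the annotated start itself, and not before it. No motif overlaps another. The windows with a match are shown with the match in capitals, Trpm6 at chr19:18749480-18749779 on the plus strand and S100g at chrX:162964550-162964849 on the minus strand, both 5′ to 3′ along the gene. A match in letters is not evidence of binding, and binding was not measured here.
Trpm6: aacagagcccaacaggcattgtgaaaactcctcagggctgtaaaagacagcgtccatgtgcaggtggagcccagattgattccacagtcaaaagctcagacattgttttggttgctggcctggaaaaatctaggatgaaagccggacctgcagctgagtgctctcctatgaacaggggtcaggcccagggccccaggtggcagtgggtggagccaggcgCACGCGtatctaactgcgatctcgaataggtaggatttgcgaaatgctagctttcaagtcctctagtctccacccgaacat
S100g: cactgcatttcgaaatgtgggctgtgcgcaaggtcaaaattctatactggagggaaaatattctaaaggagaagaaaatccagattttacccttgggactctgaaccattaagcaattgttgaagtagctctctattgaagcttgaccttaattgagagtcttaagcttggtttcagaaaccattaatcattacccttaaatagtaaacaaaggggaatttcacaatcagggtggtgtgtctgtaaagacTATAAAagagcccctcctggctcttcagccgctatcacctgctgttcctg

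The genes that work beside the calbindins and NCX1 were mostly the lower readings in Mxi1 -/-. Of a list of 19 genes of calcium entry, buffering and extrusion 12 were measured, 2 higher and 10 lower; their median difference (log2) was -0.16. Over all measured genes 44.5% were higher. Of the 10 lower readings, the log2 differences of Rab11a (-0.0077) and Anxa2 (-0.0131) lay close to 0, and Atp2b2 lay under both noise floors. Klk1, the tissue kallikrein of the connecting tubule, read 553 in Mxi1 +/+ and 639 in Mxi1 -/- (1.16-fold higher). S100a10, which helps carry TRPV5 to the cell surface together with annexin 2, read 30.4 and 25.1 (1.21-fold lower). The adaptor Ywhaz was 1.30-fold, the calcium-binding protein Tpt1 1.26-fold and the calmodulin gene Calm2 1.10-fold lower. Trpv6, the intestinal relative of TRPV5, read 0.223 and 0.198, close to the noise floors. Trpv5, Atp2b1 and Atp2b4, the entry channel and the pumps, were not analysed here.

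Hormone and sensor genes that act on distal calcium went different ways, none of those at or above the median level by 1.5-fold. Of 14 measured of 18 listed, 6 read higher and 8 lower. The median of their differences was -0.13 on the log2 scale, and 0.07 in the 7 at or above the median level. Casr, the calcium-sensing receptor, read 2.65 in Mxi1 +/+ and 3.75 in Mxi1 -/- (1.41-fold higher), and the G protein subunit gene Gnas was 1.40-fold higher. Pth1r, the parathyroid hormone receptor, read 133 and 139. Vdr, the vitamin D receptor, which drives transcription of both calbindin genes, read 2.50 and 2.03 (1.23-fold lower). Cyp24a1, which breaks down active vitamin D, read 0.152 and 0.343 (2.26-fold higher). Both Cyp24a1 readings lay near the noise floors, in level class 1, where 57.4% of genes passed 1.5-fold. Of the listed genes past 1.5-fold, all below the median level, Cyp24a1 was the only one higher and 5 were lower (Stc1, Gnaq, Esr1, Pth and Cyp2r1). That line was passed by 22.6% of all measured genes. Esr1, Pth and Cyp2r1 also lie in class 1, and their Mxi1 -/- readings lay under the noise floor. Stc1, which encodes stanniocalcin-1, read 0.954 and 0.466 and Gnaq 0.547 and 0.276, above both floors. Both lie in level class 2, where 18.8% of genes passed 1.5-fold in either direction. Gna11 was 1.05-fold higher, while Calcr was 1.03-fold lower and changed sign under 3 of 7 alternatives. Cyp27b1 was not analysed here.

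Among the magnesium genes most were lower readings, as Trpm6 was. Of 31 listed genes 18 were measured, 7 higher and 11 lower; their median difference (log2) was -0.18. In the 15 at or above the median level, 4 were higher and 11 lower with a median of -0.27, where all genes of that level had a median of -0.06 and 40.1% were higher. Trpm7, the closest relative of Trpm6, which forms channels together with it, read 12.9 in Mxi1 +/+ and 9.57 in Mxi1 -/-. It was the lower reading by 1.34-fold, a log2 difference of -0.43 like that of Trpm6. Ptp4a1, a phosphatase that binds the magnesium transporters of the CNNM family, read 4.16 and 2.56 (1.62-fold lower). It was the only one of the 15 magnesium genes at or above the median level past 1.5-fold. Of all genes at that level, 7.67% passed 1.5-fold. The sodium pump subunit Atp1b1 was 1.38-fold lower, and Msrb1, an enzyme reported to act on TRPM6, 1.35-fold lower.

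Higher readings among the magnesium genes were fewer. The largest in size was that of Kcna1, below the median level, at 0.308 in Mxi1 +/+ and 0.5605 in Mxi1 -/- (1.82-fold higher). Kcna1 was the only gene of the list higher by 1.5-fold or more. It lies in level class 2, where 18.8% of genes passed that line in either direction. Egf, whose product raises TRPM6 activity, read 28.1 in Mxi1 +/+ and 36.7 in Mxi1 -/- (1.31-fold higher). Ptp4a3 was 1.15-fold and Phb2, an inhibitor of TRPM6, 1.05-fold higher. The pump subunit Fxyd2, mutated in an inherited magnesium loss, read 539 and 566, and its sign turned under quantile normalization. Cnnm2 was not analysed here.

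The phosphate genes around klotho were split. Of 22 listed 17 were measured, 9 higher and 8 lower; their median difference (log2) was 0.0080, which was -0.16 in the 7 at or above the median level. Slc34a1, the main phosphate transporter of the proximal tubule, read 42.8 in Mxi1 +/+ and 51.2 in Mxi1 -/- (1.20-fold higher). Slc34a3, its relative, read 4.46 and 4.49, and the FGF23 receptor gene Fgfr1 read 2.08 and 2.10. Pdzk1, a scaffold of these transporters, was 1.22-fold lower, the kinase gene Sgk1 1.35-fold, the transporter Slc20a1 1.16-fold and Galnt3, an enzyme that protects FGF23, 1.12-fold lower. Fgf23, known as a bone hormone gene, read 0.224 and 0.182, near the noise floors. The log2 difference of Kl lay between those of Slc34a1 on the higher side and of Pdzk1 on the lower side.

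**Figure D3:**
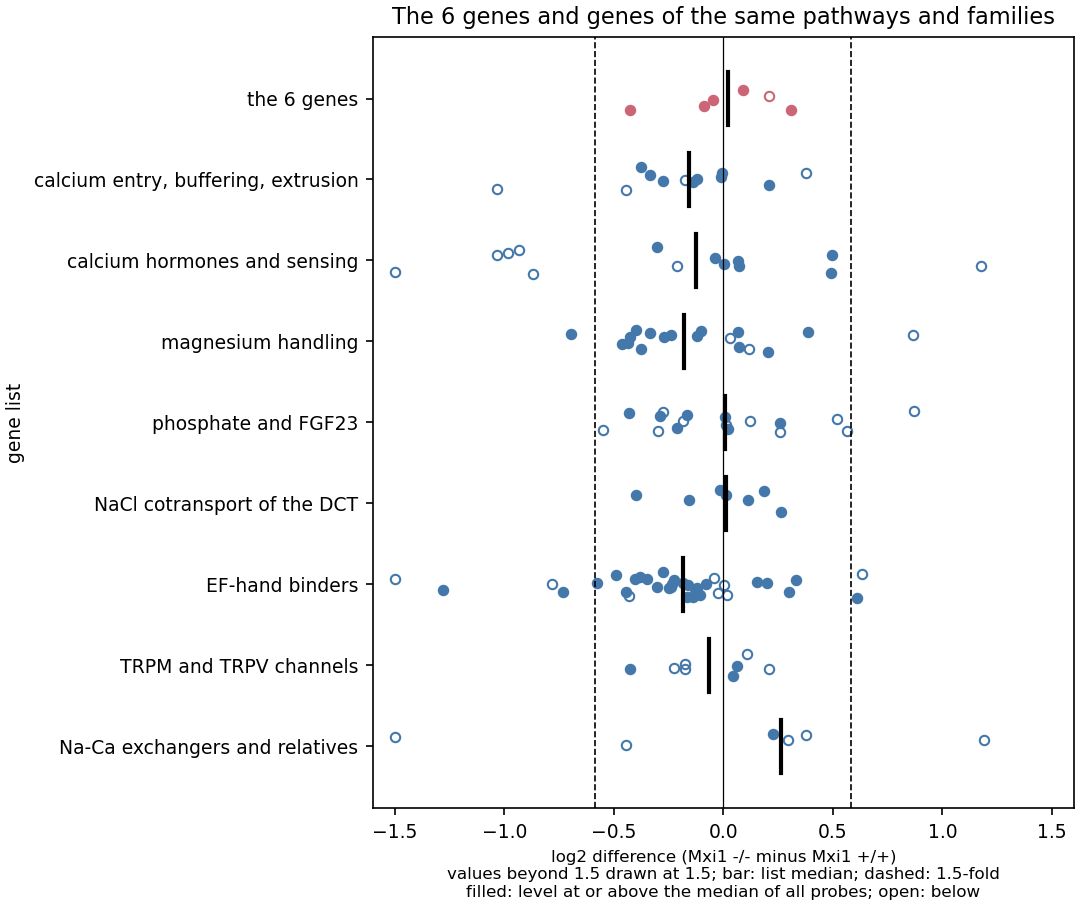
Log2 difference (Mxi1 -/- minus Mxi1 +/+) of each measured gene in the 6-gene set (red) and in 8 lists of the same pathways and protein families (blue). Filled points lie at or above the median level and open points below, bars are list medians, dashed lines mark 1.5-fold, and values beyond 1.5 in size are drawn at 1.5. The medians run from -0.19 in EF-hand binders to 0.26 in exchangers, and that of the 6 genes is 0.02.

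Markers of the distal convoluted and connecting tubule were present on both arrays, and most of those measured read slightly higher in Mxi1 -/-. Of 14 listed markers outside the set 5 were measured, all at or above the median level, 4 higher and 1 lower; their median difference (log2) was 0.21, and their summed intensity was 1148 in Mxi1 +/+ and 1274 in Mxi1 -/-. Of all genes at or above the median level, 40.1% were higher. Klk1, Egf and Fxyd2 in this list are also counted in the lists above, and Egf also in the thick ascending limb list below. Slc12a3 and Tfap2b are also counted in the list of cotransporter regulators that ends this paragraph. Most of the summed intensity came from Klk1 (553 in Mxi1 +/+ and 639 in Mxi1 -/-) and Fxyd2 (539 and 566). The sign of Fxyd2 turned under quantile normalization. Slc12a3, the thiazide-sensitive sodium chloride cotransporter that defines the segment, read 25.2 in Mxi1 +/+ and 30.2 in Mxi1 -/- (1.20-fold higher). Its log2 difference of 0.26 lay near that of Calb1 and apart from that of Trpm6. The transcription factor Tfap2b read 2.76 and 2.73, with a sign that turned under 3 of 7 alternatives. Among regulators of the cotransporter, the kinase gene Stk39 was 1.14-fold, Cul3 1.08-fold and Ppp1r1a 1.01-fold higher, while Cab39 was 1.32-fold and Nedd4l 1.11-fold lower. That list of 15 had 7 measured genes and a median of 0.01.

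Markers of other cells also differed between the same 2 kidneys, and their part in the readings of the 6 genes was not tested. Over all measured genes 55.5% were lower, and 59.9% of those at or above the median level. Beside these shares, the neighbouring segments had lower readings in 4 of 6 thick ascending limb markers (median -0.38, summed intensity 63.3 in Mxi1 +/+ and 62.9 in Mxi1 -/-), 7 of 10 principal cell markers (median -0.30, 175 and 133) and 6 of 7 intercalated cell markers (median -0.39, 81.3 and 77.0). Among members of those 3 lists at or above the median level, the markers furthest below were Kcnj1 (1.57-fold) and Ptger3 (1.33-fold), Krt18 (2.36-fold) and Tmem45b (1.78-fold), and Slc26a4 (5.09 and 3.40) and Kit (1.45-fold). The higher ones at that level were Egf (1.31-fold), then Hsd11b2 (1.15-fold), Scnn1g (1.03-fold) and Aqp3 (1.01-fold), and Atp6v1b1 (1.11-fold). Tmem45b, at 67.8 in Mxi1 +/+ and 38.1 in Mxi1 -/-, made a large part of the gap in the principal cell sum. Cldn19 of the thick ascending limb list is also counted in the magnesium list. Proximal tubule markers were 6 higher and 8 lower (median -0.06, 1553 and 1698), and podocyte markers 3 and 3 (median 0.02, or -0.19 with probes averaged, 17.6 and 15.5). Adipocyte markers were lower in 9 of 10 (median -1.64, 415 and 215), MHC and interferon genes higher in 13 of 13 (median 1.76, 322 and 584), and macrophage markers higher in 6 of 9 (median 0.29, 42.6 and 56.4).

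Parvalbumin, the calbindins and NCX1 are also known from muscle, neurons and heart. Skeletal muscle markers were 5 higher and 5 lower of 10 (median -0.18, summed intensity 30.6 in Mxi1 +/+ and 31.8 in Mxi1 -/-). Of the 10, 4 lay under a noise floor on at least 1 array and 2 lay at or above the median level: Pgam2, at 23.3 and 26.6 (1.14-fold higher), and Eno3, which was 1.47-fold lower. Cardiac and smooth muscle markers were lower in 6 of 9 (median -0.36, 48.4 and 36.2), and 2 of the 9 lay under a floor on at least 1 array. That median was -0.53 in members at or above the median level and -0.06 with a pseudocount of the array median. The cardiac actin gene Actc1 read 1.40 and 1.83 (1.31-fold higher), and the smooth muscle calponin gene Cnn1 5.70 and 1.92 (2.96-fold lower). Neuron markers were higher in 8 of 9 (median 0.35, or 0.14 both in members at or above the median level and with that pseudocount, 30.8 and 31.5), and 3 of the 9 lay under a noise floor on at least 1 array.

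**Figure D4:**
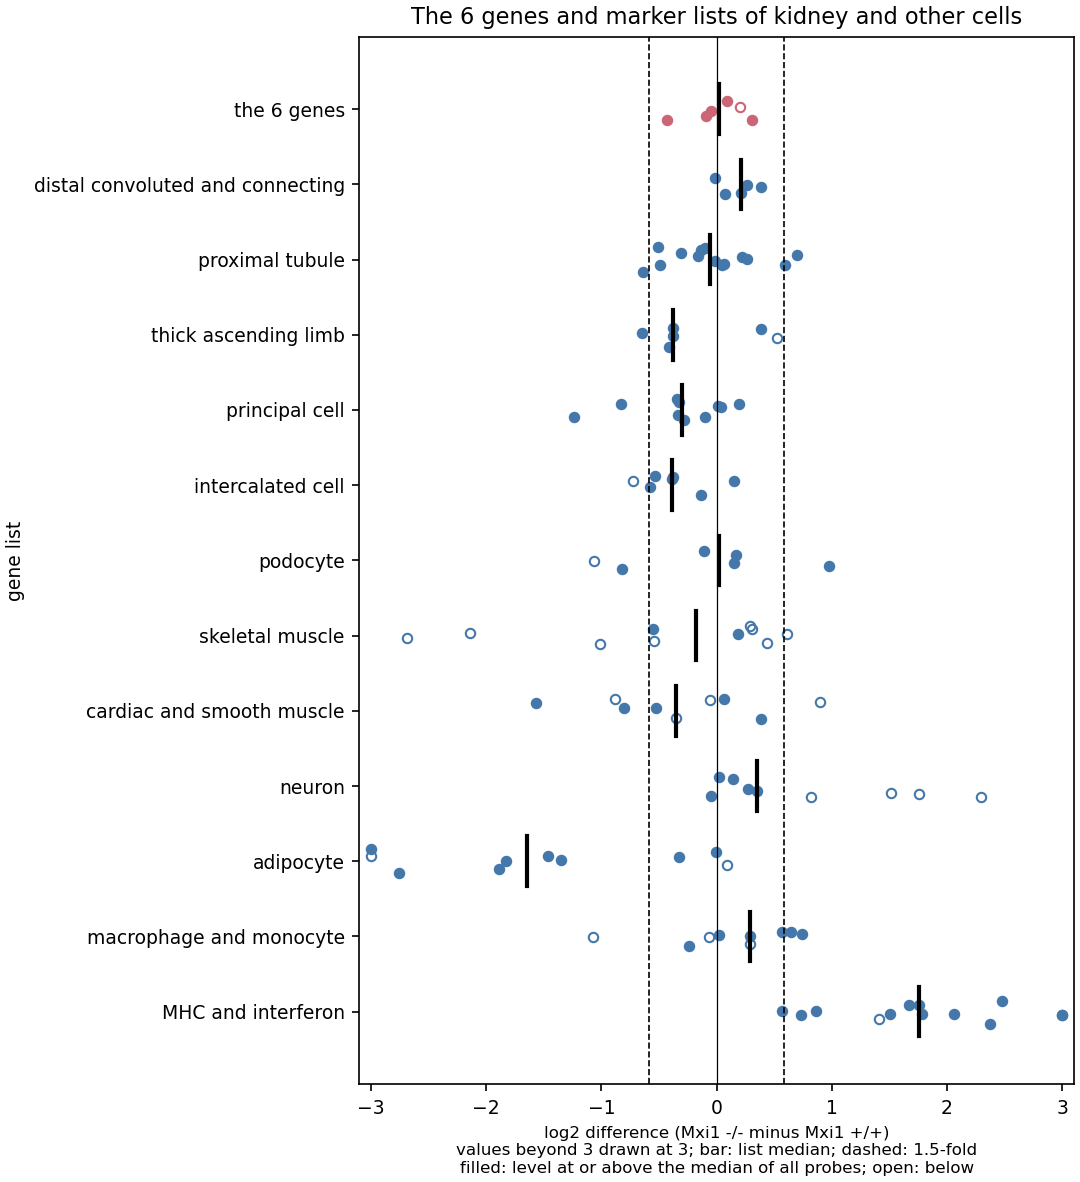
Log2 difference (Mxi1 -/- minus Mxi1 +/+) of the 6 genes (red) and of the measured genes in 12 marker lists (blue). Filled points lie at or above the median level and open points below, bars are list medians, dashed lines mark 1.5-fold, and values beyond 3 in size are drawn at 3. The distal list lies at a median of 0.21, the adipocyte list at -1.64 and the MHC and interferon list at 1.76.

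The direction of 4 of the 6 genes (Calb1, Slc8a1, Pvalb and Trpm6) was the same under each of the 7 alternative scalings run, and that of S100g and Kl was not.

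**Figure D5:**
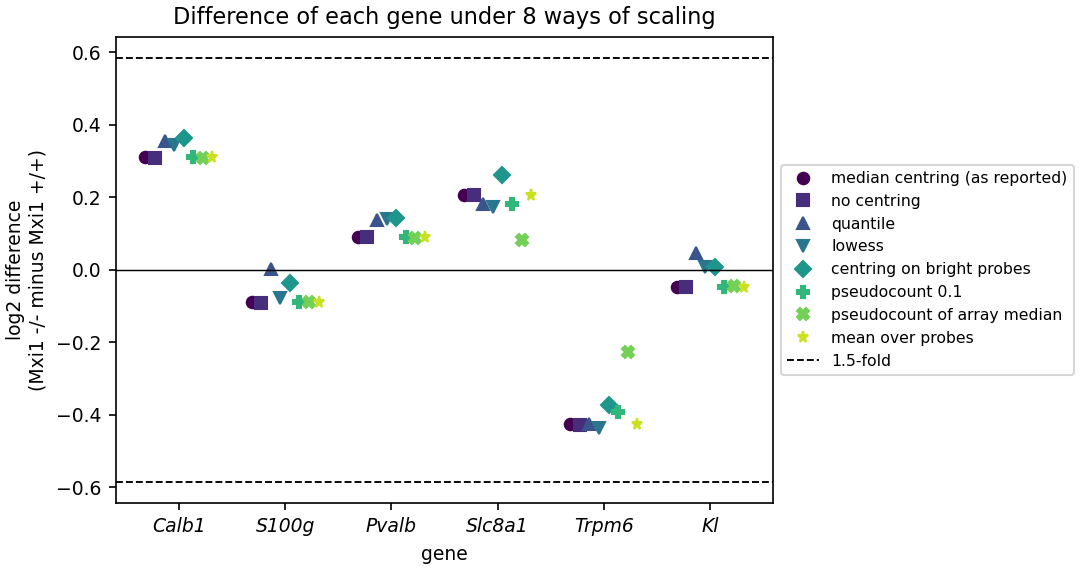
Log2 difference (Mxi1 -/- minus Mxi1 +/+) of each of the 6 genes as reported and under 7 alternatives, with dashed lines at 1.5-fold. Calb1 stays between 0.31 and 0.36, Pvalb between 0.09 and 0.14, Slc8a1 between 0.08 and 0.26 and Trpm6 between -0.44 and -0.23, while S100g (-0.09 to 0.0024) and Kl (-0.05 to 0.05) reach both sides of 0.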

How the data were processed

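Kidney RNA of 1 Mxi1 +/+ and 1 Mxi1 -/- mouse was amplified to biotin-labelled cRNA by a CodeLink kit, per the labels' protocols. The authors deposited linear intensities for 20289 probes on each array, without detection calls. Their scanner software, background correction and scaling are not given in these sources. The code -9999 (60 and 39 places) was read as missing. The platform's annotation named 10349 probes, all matched to RefSeq gene identifiers (GRCm38.p6), and the other 9940 are unnamed here. Each array was converted to log2 without a pseudocount and centred on its median over probes above 0 in both. A gene with several probes took the brightest.

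With 1 array per genotype no test was run, and the number of arrays limits the precision. Lines at 1.5-fold, at 2-fold and at 0.32 on the log2 scale are rules of size. The 6 genes, the 20 gene lists and the naming rule (the 4 genes furthest in each direction in pathway lists, 3 in family lists, 2 in marker lists, at or above the median level, and 16 fixed genes) were chosen with earlier results of these data known. Of the marker lists, not every gene that the rule gives is printed. The scaling was tested on simulated data with known shifts. The tools were NumPy 2.4.6 and pandas 2.3.3 under Python 3.11.15, with lowess (span 0.3) from statsmodels 0.14.6 and plots by matplotlib 3.10.9.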

Additional observations from a re-analysis of the deposited data

How the results depend on the processing

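Each result was recomputed under 7 alternatives: no centring, quantile normalization, lowess, centring on the brighter probes, a pseudocount of 0.1 or of the array median, and averaging of probes (which could not move the 6 genes, with 1 probe each). Calb1, Slc8a1, Pvalb and Trpm6 kept their direction under all 7, S100g under 6 and Kl under 4. None of the 6 passed 1.5-fold or 2-fold under any setting run, and with the line at 0.32 on the log2 scale and the scaling as reported 1 gene passed it, Trpm6. Calb1 passed that lower line too under quantile normalization, lowess and centring on the brighter probes, and Trpm6 missed it with the pseudocount of the array median. Quantile normalization left 5 genes higher and 1 lower in place of 3 and 3. Adding the array median as a pseudocount, which by construction shrinks the differences of dim genes, moved Trpm6 to -0.23. No alternative shifted the median of all genes by over 0.1 on the log2 scale, and the largest shift was 0.05, from centring on the brighter probes. The list medians had a further alternative, members at or above the median level only, and of the 160 values 7 changed sign, in 5 of the 20 lists. Of the 79 other genes that the naming rule gives, not all of them printed here, 5 changed sign under some alternative. No paired analysis was possible because each genotype has 1 mouse, and for the same reason no replicate could be left out.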

Other observations

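The wider protein family of the calcium binders held more lower than higher readings in Mxi1 -/-. Of 48 listed EF-hand calcium binders outside the set 35 were measured, 8 higher and 27 lower; their median difference (log2) was -0.19. Over all measured genes 55.5% were lower, with a median of -0.05. Calm2, Calm3 and S100a10 in this list are also counted in the list of calcium entry, buffering and extrusion. The S100 protein gene S100a6 was 2.43-fold lower, with 109 in Mxi1 +/+ and 44.7 in Mxi1 -/-. S100a14 read 8.27 and 4.97 (1.66-fold lower) and Rcn2, a calcium binder of the endoplasmic reticulum, was 1.49-fold lower. On the higher side were the neuronal calcium sensor Vsnl1 (1.52-fold, with readings of 0.909 and 1.38), Cib1 (1.26-fold) and S100a1 (88.8 and 109, 1.23-fold). Against these, Calb1 stood at 1.24-fold higher, and S100g and Pvalb at 1.06-fold lower and higher.

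Relatives of Trpm6 and Slc8a1 were mostly dim. Of 13 listed TRPM and TRPV channels 8 were measured, 4 higher and 4 lower (median -0.07, or 0.04 in those at or above the median level), and 3 lay at or above the median level: Trpm7, at 1.34-fold lower, and Trpv3 and Trpv4, at 1.04-fold and 1.03-fold higher. Of 8 listed exchangers related to NCX1 6 were measured, 4 higher and 2 lower (median 0.26, and -0.11 with probes averaged). Only Slc24a2 among them lay at or above the median level (1.70 and 1.99, 1.17-fold higher). The largest difference of the exchangers was that of Slc24a3, at 0.930 in Mxi1 +/+ and 0.165 in Mxi1 -/- (5.64-fold lower). Its Mxi1 -/- reading lay close to the noise floor. Slc24a1, one of the 4 higher, lay under both noise floors. Trpm7 is also counted in the magnesium list above, and Trpv6, Slc8a3 and Slc8b1 in the calcium list.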
